A study of Homo sapiens with 6 samples.

Results

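The 47 genes described here encode the proteins that mark replication origins, load and activate the replicative helicase, and copy DNA at the fork. They were taken by symbol from a table of 60605 genes, according to a list of fork and origin genes. Measured values did not enter that rule, but earlier results of these data were known when the list was chosen. All 47 symbols were found, and all 47 passed the expression filter (a mean of at least 0.5 FPKM over the 6 libraries, where FPKM is the count per kilobase of exon, scaled to the library's total). The filter left 14192 genes for testing. The lowest count of any member in any library was 88.

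The cells were SW480, an established line from a human colon adenocarcinoma. They received a lentivirus with an empty plasmid (vector, 3 libraries) or with TIPE, the protein encoded by TNFAIP8 (TIPE, 3 libraries). Every group was selected with puromycin before poly(A) RNA was sequenced as paired-end reads. Whether the lines were clones or pools, and which promoter drove TIPE, was not given in the sources used here. Nothing in the labels states that libraries of a group came from separate cultures, so p-values reflect variation among these libraries that may be only technical. Total counts lay between 13957349 and 20345330 per library. TNFAIP8 stood at 1.345, 0.953 and 0.845 FPKM in vector libraries 1 to 3 and at 626, 571 and 530 FPKM in TIPE libraries 1 to 3, which matches the labels. The first principal component, with 51.8% of the variance, separated the groups, and TIPE library 3 stood apart from the other TIPE libraries on the second. Of 10 colon epithelial markers 7 passed the filter, while KRT20, LGALS4 and CDH17 stayed under 0.3 FPKM. KRT8, KRT18, KRT19 and CDX2 rose, CDH1 fell from 35.9 ± 1.31 to 13.7 ± 0.875 FPKM (SD, n = 3 each) and EPCAM fell (log2 fold change -0.20, edgeR adjusted p = 0.0307). VIL1, at 19.0 and 16.9 FPKM, did not pass. The 10 markers summed to 1246 to 1341 FPKM in vector and 1608 to 1664 FPKM in TIPE libraries, and their part in the results was not tested. Summed markers of fibroblasts were at 1.79 to 3.37 FPKM and those of leukocytes at 0.566 to 0.952 FPKM, with COL1A2, COL3A1, PTPRC, CD3E and MS4A1 at 0 in every library.

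DNA replication is licensed in G1, when the origin recognition complex (ORC), CDC6 and CDT1 load the MCM2-7 ring onto DNA. In S phase CDC45 and GINS join MCM2-7 to form the active helicase, polymerase alpha-primase starts each strand, and polymerases delta and epsilon extend it on the PCNA clamp. Many of these genes are known targets of E2F factors, and their transcripts are highest near the start of S phase in cycling cells. In bulk RNA a smaller share of cells in one phase and less RNA per cell cannot be told apart.

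In TIPE libraries 13 of the 47 genes rose and 8 fell, and 26 did not pass the threshold (quasi-likelihood test of edgeR, adjusted p under 0.05 by the Benjamini-Hochberg method over 14192 genes). The 21 called members were 44.7% of the list, beside 41.6% of all genes tested. Those that rose were 27.7% of the members against 20.9% of all genes, and those that fell were 17% against 20.7%, so the shares called lay near those of all genes. The genes that rose included 4 of the 6 MCM2-7 subunits, the delta polymerase subunits POLD1 and POLD2, DNA ligase LIG1 and the clamp PCNA. Those that fell included the ribonucleotide reductase subunit RRM2, the helicase activator MCM10 and 3 of the 4 fork adaptors. Changes were small: the largest was MCM5, at 1.42-fold, and no member passed the test with a fold of 1.5 or more, as 6.71% of all genes did. The median absolute log2 fold change was 0.13 over the members and 0.22 over all genes tested. Neither this nor the share at 1.5-fold was matched for expression level, and genes tested reach down to a mean of 0.5 FPKM. Median log2 fold changes were 0.0063 for the members and -0.0006 for all genes. Together the members took 0.371%, 0.368% and 0.372% of counts in vector libraries 1 to 3 and 0.367%, 0.37% and 0.365% in TIPE libraries 1 to 3, and these ranges overlapped.

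Both counts depend on the scaling. With library totals in place of TMM factors, which lowered the members' log2 fold changes by a median of 0.0711, 10 members were higher (21.3%, against 15.1% of all genes) and 12 lower (25.5%, against 27.3%). On the deposited FPKM scale, limma called 6 higher (12.8%, against 13.5%) and 9 lower (19.1%, against 22.8%). Without TIPE replicate 3, which stood apart, 14 members were higher (29.8%, against 22.4%) and 10 lower (21.3%, against 22.2%) in edgeR. Deposited FPKM ranges of the groups did not overlap for 27 members, or 57.4% (50.9% of all genes), of which 11 were higher (23.4%, against 19.1%) and 16 lower (34%, against 31.8%). All FPKM values below are as deposited, without TMM factors, so fitted log2 fold changes lie about 0.0711 above their ratios. A further fit, called GC-corrected below, took out the dependence of each library's counts on transcript GC content and exon length. Of the 21 called members, 8 kept the call in every alternative that tested them: MCM2, MCM5, MCM6, POLD1, LIG1, MCM10, RRM2 and CLSPN. How many of all called genes did so was not counted.

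**Figure D1:**
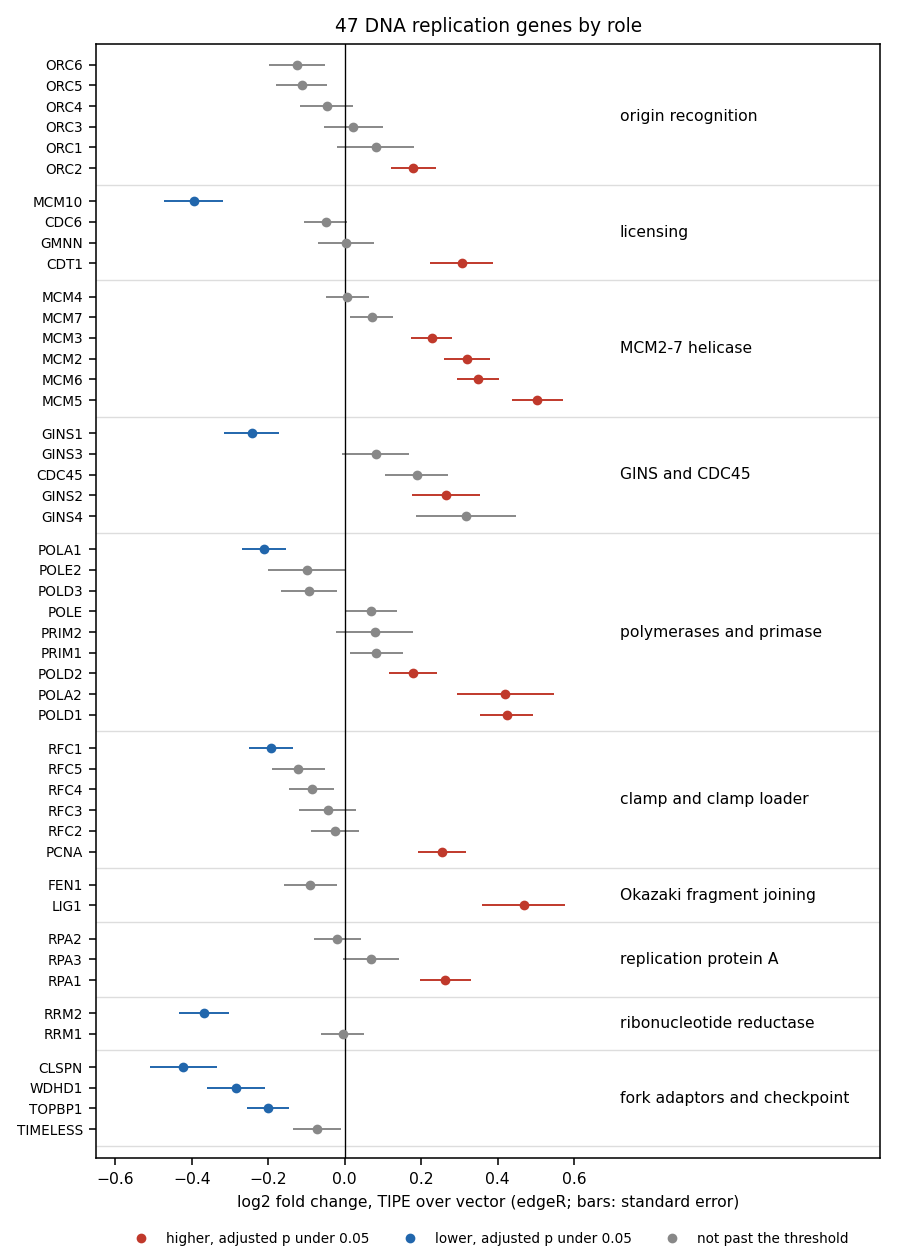
Log2 fold change of TIPE over vector libraries for each of the 47 genes, grouped by role, with the edgeR standard error as a bar. MCM5 (0.50) lies highest and CLSPN (-0.42) lowest; every MCM2-7 subunit lies at or above 0 and every fork adaptor below 0, but MCM4 and MCM7 turn below 0 on library totals, and MCM7 also in the GC-corrected fit.

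Because several of these genes are textbook E2F targets, the promoters of the 3 members that rose and the 3 that fell with the smallest adjusted p, among those in the reference table, are shown for their motif letters. Each run holds 250 bases before the first listed RefSeq start and 20 after it, 5′ to 3′ on the gene's strand, from RefSeq on GRCh38.p14. Capitals mark letters of E2F (TTTCCCGC, TTTCGCGC, TTTGCCGC or TTTGGCGC), of the cell cycle homology region CHR (TTTGAA or TTCGAA) and of the CCAAT box (CCAAT), on either strand. MCM6 lies at chr2:135876424-135876693 on the minus strand, POLD1 at chr19:50384073-50384342 and MCM2 at chr3:127598161-127598430 on the plus strand, and these are the genes that rose.
MCM6: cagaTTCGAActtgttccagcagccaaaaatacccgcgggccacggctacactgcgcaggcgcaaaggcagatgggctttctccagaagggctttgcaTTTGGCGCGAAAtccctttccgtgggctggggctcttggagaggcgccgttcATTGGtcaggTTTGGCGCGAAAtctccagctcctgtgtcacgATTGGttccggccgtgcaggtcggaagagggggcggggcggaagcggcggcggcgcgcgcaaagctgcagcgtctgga
POLD1: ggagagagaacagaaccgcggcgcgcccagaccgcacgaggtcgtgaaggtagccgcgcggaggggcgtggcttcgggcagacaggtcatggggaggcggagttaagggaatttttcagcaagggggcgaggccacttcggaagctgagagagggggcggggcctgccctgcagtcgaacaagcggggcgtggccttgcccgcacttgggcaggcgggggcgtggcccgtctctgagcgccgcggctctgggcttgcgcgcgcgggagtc
MCM2: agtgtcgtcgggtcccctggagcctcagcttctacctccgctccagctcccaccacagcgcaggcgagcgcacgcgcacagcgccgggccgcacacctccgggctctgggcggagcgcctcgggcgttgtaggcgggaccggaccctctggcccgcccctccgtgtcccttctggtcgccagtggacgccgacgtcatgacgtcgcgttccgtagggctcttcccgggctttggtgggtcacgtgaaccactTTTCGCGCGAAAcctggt
Of the genes that fell, RRM2 lies at chr2:10122489-10122758 and MCM10 at chr10:13161308-13161577 on the plus strand, and CLSPN at chr1:35769959-35770228 on the minus strand. RRM2 as counted starts upstream of this RefSeq start, at 10120698, so its window lies inside the counted gene.
RRM2: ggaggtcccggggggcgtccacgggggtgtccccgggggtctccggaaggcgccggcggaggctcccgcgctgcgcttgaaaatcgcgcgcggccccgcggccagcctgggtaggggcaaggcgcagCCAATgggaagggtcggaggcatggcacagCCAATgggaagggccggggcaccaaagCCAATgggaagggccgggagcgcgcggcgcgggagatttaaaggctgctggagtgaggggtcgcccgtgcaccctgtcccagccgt
MCM10: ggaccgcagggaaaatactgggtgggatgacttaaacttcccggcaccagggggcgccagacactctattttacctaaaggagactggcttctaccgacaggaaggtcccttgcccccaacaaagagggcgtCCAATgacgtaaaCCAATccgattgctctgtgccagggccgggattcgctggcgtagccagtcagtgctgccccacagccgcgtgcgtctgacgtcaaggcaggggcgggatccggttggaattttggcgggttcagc
CLSPN: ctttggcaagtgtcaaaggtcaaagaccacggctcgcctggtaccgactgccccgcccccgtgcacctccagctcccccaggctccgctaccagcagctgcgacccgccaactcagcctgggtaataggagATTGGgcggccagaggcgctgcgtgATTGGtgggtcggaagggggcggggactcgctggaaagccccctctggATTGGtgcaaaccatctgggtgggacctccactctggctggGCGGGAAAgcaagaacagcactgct
The promoter of MCM6 held 4 E2F matches, as overlapping pairs on opposite strands, with 2 CCAAT matches and 1 CHR match. That of MCM2 held 2 overlapping E2F matches just past the start. POLD1 held none of the letters. RRM2 held 3 CCAAT matches and no E2F letters, MCM10 held 2 CCAAT matches, and CLSPN held 3 CCAAT matches and 1 E2F match. A match is a description of the sequence, not a bound site.

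Of the 47 members, 41 matched the RefSeq table of promoters, searched from 250 bases before to 50 after the start. MCM4, MCM5, GINS4, POLD3, RPA2 and RPA3 are named only. E2F letters stood in 19 of the 41 windows, or 46.3%, against 3.33% of 27305 promoters of the same length. They stood in 8 of 12 genes that rose, 4 of 8 that fell and 7 of 21 that did not pass, so promoters with the letters occurred in each class. CCAAT letters stood in 24 of 41, or 58.5%, against 35.7% of all promoters. CHR letters stood in 2 of 41, or 4.88%, against 16.6% of all promoters, and were present in 16 of 20 promoters of the mitosis list described further on. Within the 250 bases before the start alone, E2F letters were in 29.3% of the members and 2.79% of all promoters, and in 7 of 12 genes that rose, 1 of 8 that fell and 4 of 21 that did not pass.

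The origin recognition complex binds origins and serves as the platform for helicase loading. Of its 6 genes, ORC2 rose and 5 did not pass. ORC2 was at 11.7, 12.1 and 11.5 FPKM in vector libraries 1 to 3 and at 12.8, 12.2 and 13.0 FPKM in TIPE libraries 1 to 3. The ranges met closely without overlapping. The log2 fold change of this gene was 0.18 ± 0.06 (SE, edgeR adjusted p = 0.0160), and 0.34 in the GC-corrected fit. It missed the threshold without vector replicate 1 or 3 (0.17 each, edgeR adjusted p = 0.0747 and 0.0513), within 3.73e-05 to 0.148 over all alternatives. ORC2 overlaps a gene expressed at 0.956 FPKM on the opposite strand, ENSG00000183308, and strand use in the counting was not stated. ORC6, the smallest subunit, was at 11.95, 11.4 and 11.2 FPKM and at 9.36, 9.51 and 11.3 FPKM. Only TIPE library 3 overlapped the vector libraries. Its log2 fold change of -0.13 did not pass (edgeR adjusted p = 0.180) but was -0.21 without TIPE replicate 3 (edgeR adjusted p = 0.00862; 0.00862 to 0.491 over the alternatives). ORC1, ORC3, ORC4 and ORC5 had group means between 3.93 and 14.3 FPKM, and the log2 fold change of ORC4 went from -0.05 to 0.20 in the GC-corrected fit (edgeR adjusted p = 0.0239; 0.0239 to 0.823 over the alternatives).

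Among the licensing genes CDT1 rose, while CDC6, the ATPase that recruits CDT1 and MCM2-7, and geminin (GMNN), the inhibitor of CDT1, did not pass. MCM10, grouped with them here although it acts after the helicase is loaded, fell. CDT1, the MCM2-7 loading factor, was at 12.6, 13.4 and 15.9 FPKM in vector libraries 1 to 3 and at 17.2, 16.2 and 15.6 FPKM in TIPE libraries 1 to 3. Vector library 3 lay above TIPE library 3, so the ranges overlapped. On the log2 scale this was a change of 0.31 ± 0.08 (SE, edgeR adjusted p = 0.00494). It missed the threshold without vector replicate 1 (0.23, edgeR adjusted p = 0.0540) and in the GC-corrected fit (0.05, edgeR adjusted p = 0.606), within 0.000206 to 0.637 over the alternatives.

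MCM10, which binds the loaded helicase and is needed for origin firing, was at 6.85, 6.63 and 5.97 FPKM in vector libraries and at 4.52, 4.54 and 5.07 FPKM in TIPE libraries. Every TIPE library lay below every vector library. This gave a log2 fold change of -0.40 ± 0.08 (SE, edgeR adjusted p = 0.000339), and it was -0.32 in the GC-corrected fit. CDC6 had means of 15.6 ± 0.241 and 14.4 ± 0.168 FPKM and GMNN means of 14.8 ± 0.682 and 14.1 ± 1.16 FPKM (SD, n = 3 each).

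MCM2-7 is a ring of 6 related ATPases, loaded in equal numbers, that unwinds DNA ahead of the fork. In TIPE libraries MCM5, MCM6, MCM2 and MCM3 rose, and MCM4 and MCM7 did not pass. MCM5 (chromosome 22, 35400134 to 35425431, hg38) was at 5.29, 5.52 and 5.48 FPKM in vector libraries 1 to 3 and at 7.54, 7.51 and 6.90 FPKM in TIPE libraries 1 to 3. The groups were well apart. The fitted difference was 0.50 ± 0.07 in log2 units (SE, edgeR adjusted p = 5.78e-06). MCM6 (chromosome 2, 135839626 to 135876443) was at 26.1, 26.2 and 25.0 FPKM and at 30.7, 31.2 and 32.0 FPKM. All TIPE libraries lay above all vector libraries. In edgeR the log2 fold change came to 0.35 ± 0.05 (SE, adjusted p = 3.41e-05), and 0.40 in the GC-corrected fit. Unlike the other MCM2-7 genes that rose, MCM6 has a transcript of low GC content, 43.1%, against 57.0% for MCM5, 58.1% for MCM2 and 51.6% for MCM3.

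MCM2 had a log2 fold change of 0.32 and MCM3 of 0.23 (edgeR adjusted p = 0.000284 and 0.00195). The GC-corrected values were 0.17 and 0.13. MCM7, the most abundant of the 47 transcripts, was at 138, 131 and 139 FPKM in vector libraries and at 135, 140 and 132 FPKM in TIPE libraries. Its groups overlapped. The log2 fold change of MCM7 was 0.07 (edgeR adjusted p = 0.343) and turned to -0.08 in the GC-corrected fit. The microRNA genes MIR25, MIR93 and MIR106B lie within MCM7 on the same strand. MCM4 was at 24.3, 23.7 and 21.8 FPKM and at 22.0, 22.4 and 22.5 FPKM, with overlap and a log2 fold change of 0.0063 (edgeR adjusted p = 0.941).

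**Figure D2:**
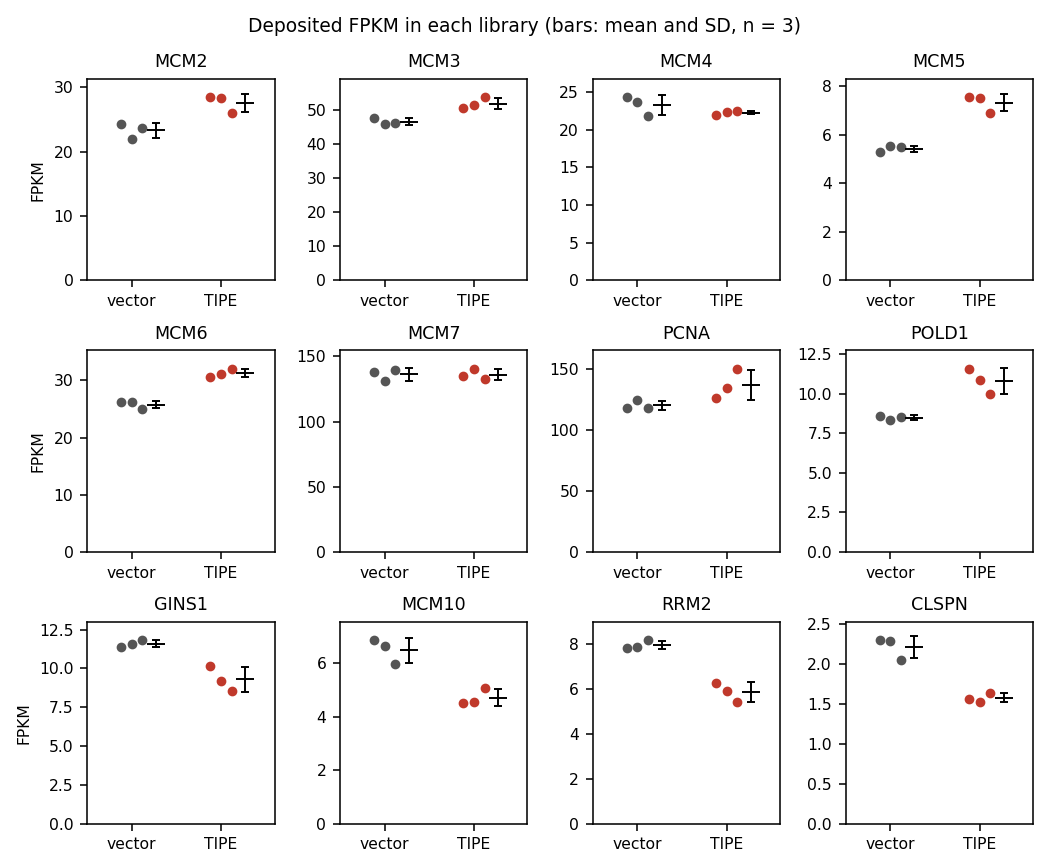
Deposited FPKM of 12 members in each of the 3 vector and 3 TIPE libraries, with the mean and SD beside the points; each panel has its own axis from 0. MCM2, MCM3, MCM5, MCM6, PCNA and POLD1 are higher in every TIPE library, GINS1, MCM10, RRM2 and CLSPN are lower in every one, and MCM4 and MCM7 overlap.

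CDC45 and the 4 GINS proteins hold the active helicase together. Here GINS2 rose, GINS1 fell, and GINS3, GINS4 and CDC45 did not pass. GINS1 was at 11.4, 11.6 and 11.8 FPKM in vector libraries 1 to 3 and at 10.2, 9.21 and 8.54 FPKM in TIPE libraries 1 to 3. No TIPE library reached the vector range. The log2 fold change of this gene was -0.24 ± 0.07 (SE, edgeR adjusted p = 0.00990), but -0.15 in the GC-corrected fit (edgeR adjusted p = 0.119; 0.00154 to 0.133 over the alternatives). GINS2 was at 5.44, 5.45 and 6.03 FPKM and at 6.14, 6.81 and 6.32 FPKM. The groups were separated by a narrow gap. On the log2 scale this was a change of 0.27 ± 0.09 (SE, edgeR adjusted p = 0.0213). Leaving out vector replicate 1, vector replicate 2 or TIPE replicate 2 ended that call (0.23, 0.23 and 0.21, edgeR adjusted p = 0.0903, 0.105 and 0.132), and 9 of 16 alternatives in all did so (0.0114 to 0.134). GINS4 had a log2 fold change of 0.32 (edgeR adjusted p = 0.0575), or 0.39 without TIPE replicate 3 (edgeR adjusted p = 0.0197; 0.0197 to 0.205 over the alternatives). CDC45 had a log2 fold change of 0.19 (edgeR adjusted p = 0.0728), with means of 7.79 ± 0.609 and 8.46 ± 0.457 FPKM (SD, n = 3 each). GINS3 had means of 3.96 and 3.97 FPKM, and GINS4, the lowest of the 4 in FPKM, had means of 1.21 and 1.43 FPKM.

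Of the 9 polymerase and primase genes, POLD1, POLA2 and POLD2 rose, POLA1 fell and 5 did not pass. POLD1, the catalytic subunit of polymerase delta, was at 8.61, 8.31 and 8.50 FPKM in vector libraries 1 to 3 and at 11.6, 10.9 and 9.96 FPKM in TIPE libraries 1 to 3. All TIPE libraries were higher. This gave a log2 fold change of 0.42 ± 0.07 (SE, edgeR adjusted p = 5.23e-05), and 0.22 in the GC-corrected fit. POLA1, the catalytic subunit of polymerase alpha, was at 5.55, 5.59 and 5.32 FPKM and at 4.46, 4.45 and 4.65 FPKM. The TIPE libraries were all lower. The fitted difference was -0.21 ± 0.06 in log2 units (SE, edgeR adjusted p = 0.00486), but 0.01 in the GC-corrected fit (edgeR adjusted p = 0.895; 0.00054 to 0.909 over the alternatives). POLA1 contains the pseudogene EEF1B2P3 at 57.2 FPKM on the opposite strand.

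POLA2, the accessory subunit of polymerase alpha, had a log2 fold change of 0.42 (edgeR adjusted p = 0.0114), and 0.31 without vector replicate 2 (edgeR adjusted p = 0.103; 0.00709 to 0.103 over the alternatives). Its means were 1.38 ± 0.160 and 1.76 ± 0.187 FPKM (SD, n = 3 each). The call of POLA2 was also lost in limma on log2(FPKM + 1) and on log2(FPKM + 0.1) (limma adjusted p = 0.091 and 0.0889). POLA2 overlaps ENSG00000285816, at 0.383 FPKM on the same strand, over most of its length. POLD2, an accessory subunit of polymerase delta, had a log2 fold change of 0.18 (edgeR adjusted p = 0.0256) although its groups overlapped, at means of 75.9 ± 5.96 and 81.8 ± 1.33 FPKM (SD, n = 3 each). The call of POLD2 was lost in 8 of 16 alternatives. Leaving out vector replicate 1, vector replicate 2 or TIPE replicate 2 gave 0.12, 0.16 and 0.16 (edgeR adjusted p = 0.203, 0.112 and 0.10), and the value was -0.0073 in the GC-corrected fit (edgeR adjusted p = 0.932; 0.0026 to 0.953 over the alternatives). The primase subunits PRIM1 and PRIM2, the delta subunit POLD3 and the epsilon subunits POLE and POLE2 did not pass, with group means from 2.64 to 17.0 FPKM.

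PCNA, the sliding clamp that tethers the polymerases, rose, and RFC1, the large subunit of the clamp loader, fell. PCNA was at 118, 124 and 118 FPKM in vector libraries 1 to 3 and at 126, 134 and 150 FPKM in TIPE libraries 1 to 3. Every TIPE library was higher, with TIPE library 3 farthest. In edgeR the log2 fold change came to 0.25 ± 0.06 (SE, adjusted p = 0.00245), a call that limma on deposited FPKM did not make. RFC1 was at 12.3, 12.2 and 11.6 FPKM and at 10.0, 9.87 and 10.3 FPKM. Its TIPE libraries were all lower. The log2 fold change of this gene was -0.19 ± 0.06 (SE, edgeR adjusted p = 0.00965), but -0.05 in the GC-corrected fit (edgeR adjusted p = 0.489; 0.00109 to 0.565 over the alternatives). The small loader subunits RFC2, RFC3, RFC4 and RFC5 did not pass, with group means between 10.9 and 37.3 FPKM. RFC2 had a log2 fold change of -0.03, which was -0.18 in the GC-corrected fit (edgeR adjusted p = 0.0174; 0.0174 to 0.942 over the alternatives).

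LIG1 seals Okazaki fragments after FEN1 has removed their flaps. LIG1 was at 1.61, 1.42 and 1.345 FPKM in vector libraries 1 to 3 and at 2.00, 1.91 and 1.84 FPKM in TIPE libraries 1 to 3. The groups did not overlap. On the log2 scale this was a change of 0.47 ± 0.11 (SE, edgeR adjusted p = 0.00146). FEN1 was at 48.2, 46.2 and 44.8 FPKM and at 39.99, 37.5 and 47.4 FPKM. TIPE library 3 lay within the vector range and the other TIPE libraries below it. This gave a log2 fold change of -0.09 ± 0.07 (SE, edgeR adjusted p = 0.317). It was -0.18 without TIPE replicate 3 and -0.25 in the GC-corrected fit, and passed in each case (edgeR adjusted p = 0.00488 and 0.00398; 0.00398 to 0.814 over the alternatives). FEN1 overlaps FADS2, at 1.66 FPKM on the same strand, over most of its length.

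Replication protein A is the trimer that coats single-stranded DNA. RPA1, its large subunit, rose, and RPA2 and RPA3 did not pass. RPA2, the middle subunit, had means of 57.0 ± 3.44 and 53.5 ± 1.05 FPKM (SD, n = 3 each). RPA1 was at 18.2, 18.4 and 18.9 FPKM in vector libraries 1 to 3 and at 21.8, 22.6 and 18.9 FPKM in TIPE libraries 1 to 3. TIPE library 3 barely cleared the highest vector library. The fitted difference was 0.26 ± 0.07 in log2 units (SE, edgeR adjusted p = 0.00327), a call that limma on deposited FPKM did not make. RPA1 overlaps SMYD4, at 3.14 FPKM on the opposite strand. RPA3 was at 8.72, 8.51 and 8.98 FPKM and at 8.79, 8.64 and 8.69 FPKM. Those ranges overlapped, and the log2 difference was 0.07 ± 0.07 (SE, edgeR adjusted p = 0.490). RPA3 overlaps UMAD1, at 9.37 FPKM on the opposite strand, over most of its length.

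Ribonucleotide reductase makes deoxynucleotides from ribonucleotides, with RRM1 as its large catalytic subunit and RRM2 as the small subunit whose level follows the cell cycle. RRM2 (chromosome 2, 10120698 to 10211725, hg38) was at 7.83, 7.86 and 8.17 FPKM in vector libraries 1 to 3 and at 6.27, 5.90 and 5.41 FPKM in TIPE libraries 1 to 3. Its groups were clearly apart. In edgeR the log2 fold change came to -0.37 ± 0.07 (SE, adjusted p = 0.000130), and -0.27 in the GC-corrected fit. RRM1 was at 26.2, 24.7 and 24.9 FPKM and at 23.5, 23.8 and 24.5 FPKM. Deposited values of RRM1 did not overlap, but its log2 fold change with TMM factors was -0.0058 (edgeR adjusted p = 0.947).

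The fork adaptors connect the helicase with the polymerases and with checkpoint signalling. CLSPN, WDHD1 and TOPBP1 fell and TIMELESS did not pass. CLSPN, the adaptor that brings CHK1 to ATR, was at 2.30, 2.28 and 2.05 FPKM in vector libraries 1 to 3 and at 1.56, 1.53 and 1.64 FPKM in TIPE libraries 1 to 3. The gap between the groups was wider than the spread within either. The log2 fold change of this gene was -0.42 ± 0.09 (SE, edgeR adjusted p = 0.000560), and -0.30 in the GC-corrected fit. WDHD1, which couples polymerase alpha to the helicase, was at 5.46, 6.06 and 5.22 FPKM and at 4.35, 4.22 and 4.58 FPKM. All TIPE libraries were lower. On the log2 scale this was a change of -0.28 ± 0.08 (SE, edgeR adjusted p = 0.00472). It was -0.22 without vector replicate 2 (edgeR adjusted p = 0.0530) and -0.09 in the GC-corrected fit (edgeR adjusted p = 0.349; 0.000928 to 0.418 over the alternatives). TIMELESS, which travels with the fork, had means of 19.7 ± 0.801 and 17.8 ± 1.24 FPKM (SD, n = 3 each). TOPBP1, an activator of ATR that also helps to load CDC45, went from a mean of 14.3 ± 0.139 to 11.8 ± 0.350 FPKM (SD, n = 3 each) and had a log2 fold change of -0.20 (edgeR adjusted p = 0.00608), and -0.07 in that fit (edgeR adjusted p = 0.312; 0.000577 to 0.392 over the alternatives).

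Fold changes moved with the GC content of the transcript, taken from the longest transcript of each gene. Across the 47 genes, measured in the same 6 libraries, Pearson's r between log2 fold change and GC content was 0.58 and Spearman's rho 0.52. Across 14102 tested genes with a value r was 0.31. Of the 15 members of lowest GC content (37.7% to 43.3%), 2 rose and 6 fell. Of the 15 of highest GC content (50.7% to 65.0%), 8 rose and none fell. Median GC content was 54.5% for members that rose, 42.9% for members that fell and 45.5% for the rest.

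In the GC-corrected fit 11 members were higher and 5 lower, 23.4% and 10.6% of the list, beside 17.4% and 17.5% of all genes. In either direction 34% of the members passed there, beside 34.9% of all genes. Of these 16 members, 10 were higher in both fits and 3 (MCM10, RRM2 and CLSPN) lower in both. ORC4 joined the higher genes, and FEN1 and RFC2 the lower ones. The genes that no longer passed were CDT1, GINS2 and POLD2 of those that rose, and GINS1, POLA1, RFC1, TOPBP1 and WDHD1 of those that fell. That fit takes out GC content and exon length together, and the part of each was not tested. Without it, median exon length was 4715 bases for members that rose and 7028 bases for members that fell. Pearson's r between log2 fold change and log2 exon length was then -0.19 across the 47 genes. After the correction Pearson's r with GC content was 0.15 across the 47 genes. A lower r is built into that fit, since it takes out the trend with GC content. It would also take out any effect of TIPE that went along with GC content or length. What makes fold change move with GC content was not tested.

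**Figure D3:**
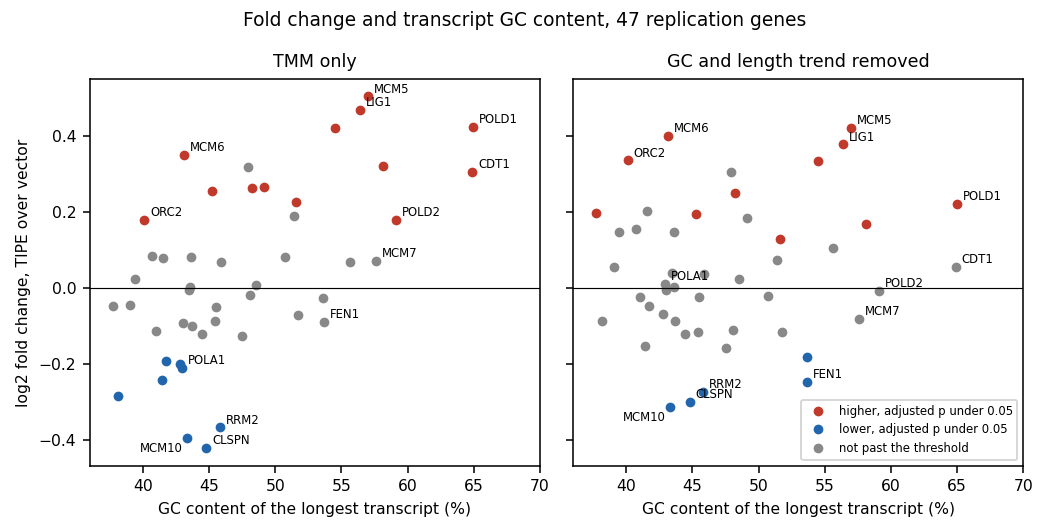
Log2 fold change of the 47 genes against transcript GC content in percent, with TMM factors only (left) and in the GC-corrected fit (right). The fit on the right also takes out the trend with exon length. On the left 8 of the 15 genes of highest GC content rose and none fell; on the right MCM5 and MCM6 stay at or above 0.40 while CDT1, POLD2 and POLA1 lie near 0.

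A subunit's share of the summed FPKM of its complex within a library is free of library scaling, though not of the GC trend. Shares within a complex depend on each other, since a higher share of a subunit lowers the rest. For each of 28 subunits an exact two-sided permutation test of the difference in share was made, which cannot go below 0.10 with 3 libraries against 3. None can therefore pass. Shares of the groups did not overlap for 16 subunits, 9 higher and 7 lower in TIPE libraries, and overlapped for the other 12. The smallest adjusted p of that permutation test over the 28 was 0.175. No such count was made for other complexes, but deposited FPKM ranges did not overlap for 50.9% of all genes tested. Exon lengths summed over all transcripts of a gene divide these FPKM values (7268 bases for MCM5), so shares of different genes compare only roughly.

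Within MCM2-7, MCM7 held 52.0%, 51.5% and 53.3% of the summed FPKM in vector libraries 1 to 3 and 49.3%, 49.95% and 48.4% in TIPE libraries 1 to 3. MCM4 held 9.15%, 9.35% and 8.36% against 8.03%, 7.96% and 8.22%. These 2 subunits had the lower shares in every TIPE library, and the other MCM genes the higher ones. Mean FPKM was 136 with the vector and 135.9 with TIPE for MCM7, and 23.3 and 22.3 for MCM4. MCM6 went from a mean of 9.90% to 11.3%, MCM2 from 8.95% to 10.0% and MCM5 from 2.09% to 2.65%. The summed FPKM of the ring was 266, 254 and 261 in vector libraries and 274, 281 and 273 in TIPE libraries.

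In percentage points, GINS showed the widest shift in share among the 6 complexes. GINS1 held 51.7%, 52.1% and 51.5% in vector libraries 1 to 3 and 47.01%, 42.3% and 42.7% in TIPE libraries 1 to 3, and GINS2 went from a mean of 25.2% to 30.4%. No TIPE library overlapped the vector range for either subunit. In polymerase alpha-primase POLA1 had mean shares of 20.8% and 17.5% and POLA2 of 5.26% and 6.80%. In ORC the share of ORC2 was 20.4% and then 23.3%, and in replication protein A that of RPA1 was 22.0% and then 25.3%. RFC1 had 11.2% and 10.4% of the clamp loader. Groups did not overlap for any of the subunits named here with a share. Those that overlapped were ORC1, ORC3, ORC4, ORC6, GINS3, PRIM1, PRIM2, RFC2, RFC3, RFC4, RFC5 and RPA3.

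**Figure D4:**
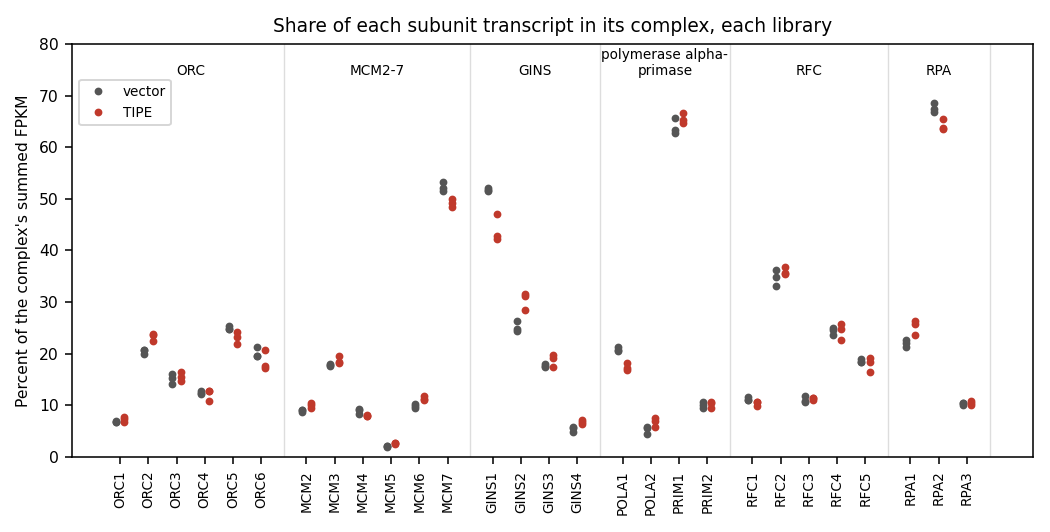
Percent of the summed FPKM of 6 complexes held by each subunit, 1 point per library, with vector libraries in grey and TIPE libraries in red. MCM7 and GINS1 lie lower, and MCM6, GINS2, ORC2 and RPA1 higher, in every TIPE library.

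Other lists around replication were read beside the members, against 20.9% of all genes higher and 20.7% lower. All values of these lists come from the fit without GC correction. Of 27 further replication factors, 6 rose, 10 fell and 11 did not pass, with a median log2 fold change of -0.12. The 4 with the smallest adjusted p all fell. RIF1, which restrains late origins, had a log2 fold change of -0.64, and TOP1, the topoisomerase that relieves supercoils, had -0.48. ATAD5, which unloads PCNA, had -0.64, and TICRR, which acts in origin firing, had -0.60 (edgeR adjusted p of 3.09e-07, 1.14e-06, 1.66e-05 and 5.43e-05). Of 10 genes of deoxynucleotide synthesis, 3 rose, 1 fell and 6 did not pass. Thymidylate synthase TYMS had a log2 fold change of 0.44, the nucleoside diphosphate kinase NME1 of 0.42 and CTP synthase CTPS1 of 0.21. SAMHD1, which degrades deoxynucleotides, had a log2 fold change of -0.31. Of 12 genes acting on chromatin at the fork, UHRF1 rose (0.28), ASF1B and MMS22L fell (-0.37 and -0.34) and 9 did not pass.

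Of 24 genes for E2F factors, S phase cyclins and checkpoint kinases, WEE1 rose (0.19), 9 fell and 14 did not pass, with a median of -0.07. The pocket proteins RB1 and RBL1 had log2 fold changes of -0.57 and -0.61, the checkpoint kinase ATR of -0.43 and the repressor E2F8 of -0.80. E2F8 was low, at 2.13, 1.76 and 1.07 FPKM in vector libraries 1 to 3. It was at 1.06, 0.856 and 0.797 FPKM in TIPE libraries 1 to 3 (SE 0.20, edgeR adjusted p = 0.00279). Vector library 3 lay barely above TIPE library 1. The activator E2F1 had means of 15.9 ± 1.33 FPKM with the vector and 15.6 ± 0.959 FPKM with TIPE (SD, n = 3 each). Of 24 genes of mitosis, 23 were tested, of which none rose, 19 fell and 4 missed the threshold, with a median log2 fold change of -0.48 beside 0.0063 for the replication genes. CENPF, of the kinetochore, went from a mean of 6.14 to 2.93 FPKM. MKI67 had a log2 fold change of -0.88, the spindle motor KIF11 of -0.79 and TOP2A of -0.61. Transcript GC content was 40.8% for CENPF, 48.3% for MKI67, 38.3% for KIF11 and 39.1% for TOP2A, against a median of 48.4% for genes tested. Over all 19 mitosis genes that fell, GC content ran from 35.3% for CENPE to 50% for UBE2C. Among mitosis genes that missed the threshold it was 55.6% for AURKB, 43.2% for CCNB1, 57.1% for PLK1 and 57.9% for CDC20. Neither the difference between the lists nor the part of GC content in it was tested.

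**Figure D5:**
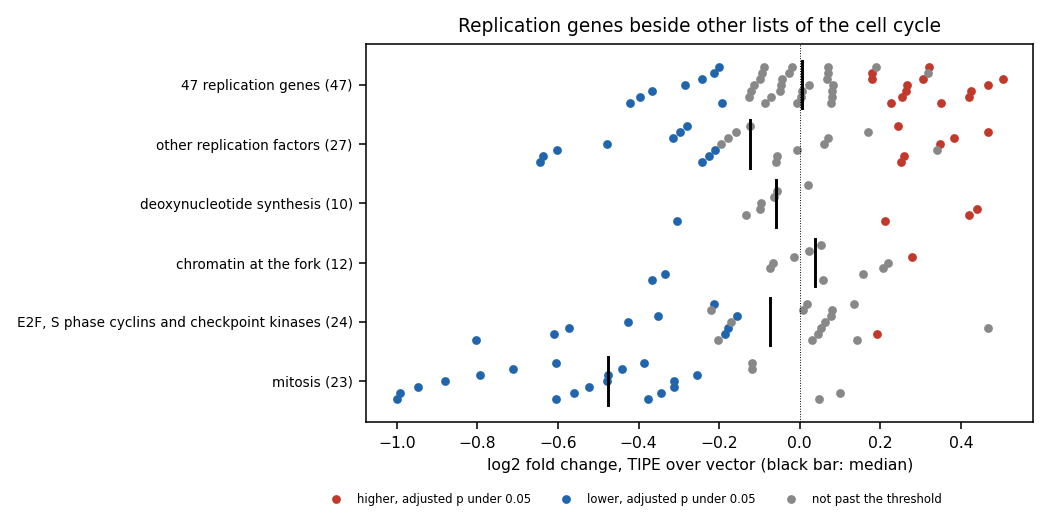
Log2 fold change of each tested gene in the 47 replication genes and 5 other lists, without GC correction. Points are coloured by the edgeR call, with a black bar at each median. The replication genes spread on either side of 0 (median 0.0063), and the mitosis genes centre on -0.48.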

How the data were processed

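The 47 members, the other gene lists and the alternatives were chosen with earlier results of these data known. The authors deposited 1 table that holds the count and the FPKM per gene and library, per the file headers. The deposited counts were whole numbers, used as raw counts. The deposited FPKM values were matched within 0.005 by the count per kilobase of exonic size, scaled by the library's total count. Alignment with HISAT2 2.0.1 to hg38 is stated per the submitters' processing notes. Counting tool, annotation and strand use were not given in the sources used here, so overlapping genes are uncertain. Pseudogenes named after a member (its symbol followed by P and a number) held at most 0.0723% of the counts of that member. Such names exist for only some members, and pseudogenes under other names were not looked for.

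Counts of 14192 genes at or over a mean of 0.5 FPKM were tested with edgeR 4.0.16 (R 4.3.3), TMM factors (0.962 to 1.03) and the group as the only term. The threshold was a Benjamini-Hochberg adjusted p under 0.05 over all genes tested. The standard error was the absolute log2 fold change over the square root of F. The procedure was tested on simulated data. Alternatives were DESeq2 1.42.0, limma 3.58.1 on log2(FPKM + 1) and log2(FPKM + 0.1), upper quartile factors, library totals, other filters, a replicate block, edgeR with offsets for each library's dependence on GC content and length (the GC-corrected fit), and leaving out each library. GC content came from GENCODE release 29 and covered all 47 members. No columns were identical. Libraries of a group differed by a chi-square per gene of 2.39 to 8.67, against 25.1 to 46.7 between groups. A count of 0 allows 3 counts, or 0.147 to 0.215 CPM, for counting error only.

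Every member past the threshold is named. In each role group the 2 members with the smallest adjusted p are given with every library's value, and MCM4 and MCM7 were added after their values were seen. Up to 4 genes of each other list are named by adjusted p. WEE1, which alone rose in its list, and E2F1 were added after their values were seen.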

Additional observations from a re-analysis of the deposited data

How the results depend on the processing

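Over 16 alternatives per member, 8 of the 21 called members kept their call in every alternative that tested them, and 8 of the 26 others passed in at least 1. The same counts were not made for all genes tested. The count of members lower was 5 in the GC-corrected fit, alone or with a replicate block, against 8. The count of members higher was 6 in limma with either pseudocount, against 13, where genes higher over the whole table numbered 1911 and 1902, against 2967, and genes lower 3240 and 3245, against 2936. The members' median was -0.0647 with library totals and -0.0599 and -0.0624 in limma, against 0.0063. Leaving out a library gave 9 to 14 members higher and 7 to 10 lower, beside 2205 to 3184 and 2286 to 3152 genes over the whole table.

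The log2 fold change turned sign in at least 1 alternative for 15 members. For ORC1, ORC3, GMNN, PRIM2, POLE, RFC3 and RPA2 the turned values lay between -0.0684 and 0.0561. In the GC-corrected fit, alone and with the block, ORC4 was at 0.1983 and 0.1960, MCM7 at -0.0826 and -0.0828, POLA1 at 0.0110 and 0.0109, POLD2 at -0.0073 and -0.0055, and RRM1 at 0.0396 and 0.0397. With library totals and in limma with pseudocounts of 1 and 0.1, MCM4 was at -0.0647, -0.0601 and -0.0624, MCM7 at -0.0004, -0.0006 and -0.0006, and RPA3 at -0.0031, -0.0037 and -0.0040. RRM1 was at 0.0139 with upper quartile factors. Leaving out each library gave -0.0988 to 0.0298 for ORC4, -0.0351 to 0.0288 for MCM4, -0.0800 to 0.0081 for RFC2 and -0.0298 to 0.0112 for RRM1. The causes were not tested.

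The labels do not state whether replicate numbers pair the samples. Deviations from the group means correlated at -0.0051, -0.0236 and -0.0546 for same-numbered libraries, and at -0.0255 to 0.0432 for libraries of different numbers. The values show no sign of pairing, but cannot tell how the samples were made. With the replicate number as a block, 13 members were higher and 8 lower, as without it, and 2802 and 2797 genes over the whole table.

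Limits are few libraries, no statement of separate cultures, and fold changes at or under 1.42. FPKM and counts carry no information on cell cycle phase or protein.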

Other observations

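Several members start close to another tested gene, here one on the opposite strand whose start lies within 1000 bases. These neighbours were chosen by position after the members' values were seen. PRKDC, the DNA-dependent protein kinase, starts 7 bases from MCM4. PRKDC fell from a mean of 28.2 to 21.5 FPKM (log2 fold change -0.32, edgeR adjusted p = 0.000636), while MCM4 had a log2 fold change of 0.0063. SOCS4, 125 bases from WDHD1, fell with a log2 fold change of -0.37 (edgeR adjusted p = 8.71e-05), beside -0.28 for WDHD1. PRPF38A, a splicing factor 179 bases from ORC1, fell with a log2 fold change of -0.25 (edgeR adjusted p = 0.00124), and ORC1 did not pass. AP4M1, whose start lies inside MCM7, rose with a log2 fold change of 0.51 (edgeR adjusted p = 0.00207). AP4M1 overlaps MCM7 on the opposite strand, and strand use in the counting was not stated, so reads there cannot be told apart. The starts beside MCM2, PCNA, LIG1 and RPA1, which rose, belong to TPRA1, CDS2, ZSWIM9 and SMYD4, none of which passed. RARS2, VPS35, UFD1, LIPT2, PXMP2 and TMEM258 did not pass either. They start beside ORC3, ORC6, CDC45, POLD3, POLE and FEN1, which also did not pass. With those above, these are all the named neighbours found. Of all genes tested, 41.6% passed in either direction.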
